A study of Mus musculus with 15 samples.

Results

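Surface and antigen-handling genes that mark classical type 1 dendritic cells (cDC1s) were followed across bone marrow dendritic cell development in mice that lack Batf3 or Id2. The 8 genes, Xcr1, Clec9a, Cadm1, Cd24a, Wdfy4, Ly75, Btla and Cd8a, were chosen as a list of classical cDC1 markers, and all 8 were measured, among 19938 genes on the array. A probe set counted for a gene only if its annotation named that symbol alone, and the probe set with the highest mean was taken where a gene had several. Levels were read on mouse Affymetrix gene arrays in 6 groups, given here as the deposited signal or its log2. The later stage was a bone marrow cell sorted on GFP from Zbtb46 and on an intermediate level of c-Kit, hereafter the GFP+ cell, and the earlier stage was the CDP, the common dendritic cell progenitor. Batf3 KO cells came from Zbtb46-GFP reporter mice, and Id2 KO and WT cells from Zbtb46-GFP chimeric mice, so every group carried the GFP reporter. Host type and the absence of Batf3 cannot be told apart in the comparison of Batf3 KO with WT. Likewise, host type and genotype cannot be told apart in every comparison of Id2 KO with Batf3 KO given below. How the chimeras were made was not given in the sources used here.

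cDC1s take up dead cells and present their contents to CD8+ T cells, a process called cross-presentation. Batf3 is a transcription factor that pairs with Jun proteins and cooperates with Irf8, and mice without it lack mature cDC1s in most organs. Id2 binds E proteins, transcription factors that recognise the E-box, and keeps them from DNA. Of the genes followed, Clec9a and Ly75 encode receptors for uptake, Wdfy4 an intracellular protein needed for cross-presentation, and Xcr1 a chemokine receptor. Cadm1 and Cd24a encode adhesion and surface glycoproteins, and Btla and Cd8a encode an inhibitory receptor and a co-receptor chain.

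Of the 15 arrays, 12 lay on a common scale, with median signals of 100.8 to 112.1, and gave 2 arrays per group: GFP+ replicates 2 and 3 and CDP replicates 1 and 2. The 3 GFP+ replicate 1 arrays, 1 per genotype, had median signals of 23.8 to 24.1, and 54.0% of probe sets had the same value on all 3, so their values are given apart and enter no mean. Differences were tested with limma over the 12 arrays, with p-values adjusted by the Benjamini-Hochberg method over all 19938 genes and a threshold of 0.05. When all 15 arrays were fitted together with no term for the difference in scale, 0 members passed in any comparison (limma; 214 genes had an unadjusted p under 0.05 in the WT step, and 3 to 131 in the others). Nothing in the labels says that replicates came from separate animals, so p-values measure the spread between these arrays, which may be technical, and 2 arrays per group limit the precision. These cells are bulk samples, in which fewer cells that express a gene and less RNA per cell cannot be told apart.

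In WT, 6 of the 8 marker genes were higher in GFP+ cells than in CDPs, led by Xcr1 and Btla, and Clec9a, Wdfy4, Cadm1 and Ly75 rose with them. Of all genes, 4.71% rose in the same comparison. The median change of the 8 members was 1.74 log2 units, beside 0.03 for all genes. Cd24a and Cd8a were higher by 0.59 and 0.49 log2 units and did not pass the test (limma adjusted p = 0.0548 and 0.0536). For all 8 genes both GFP+ arrays lay above both CDP arrays, which held for 21.4% of all genes. Centring each array on its 75th percentile moved the median of all genes by 0.11 log2 units in this step, and the split of all called genes, 940 higher and 1272 lower, became 1197 higher and 996 lower; the same 6 members rose.

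**Figure D1:**
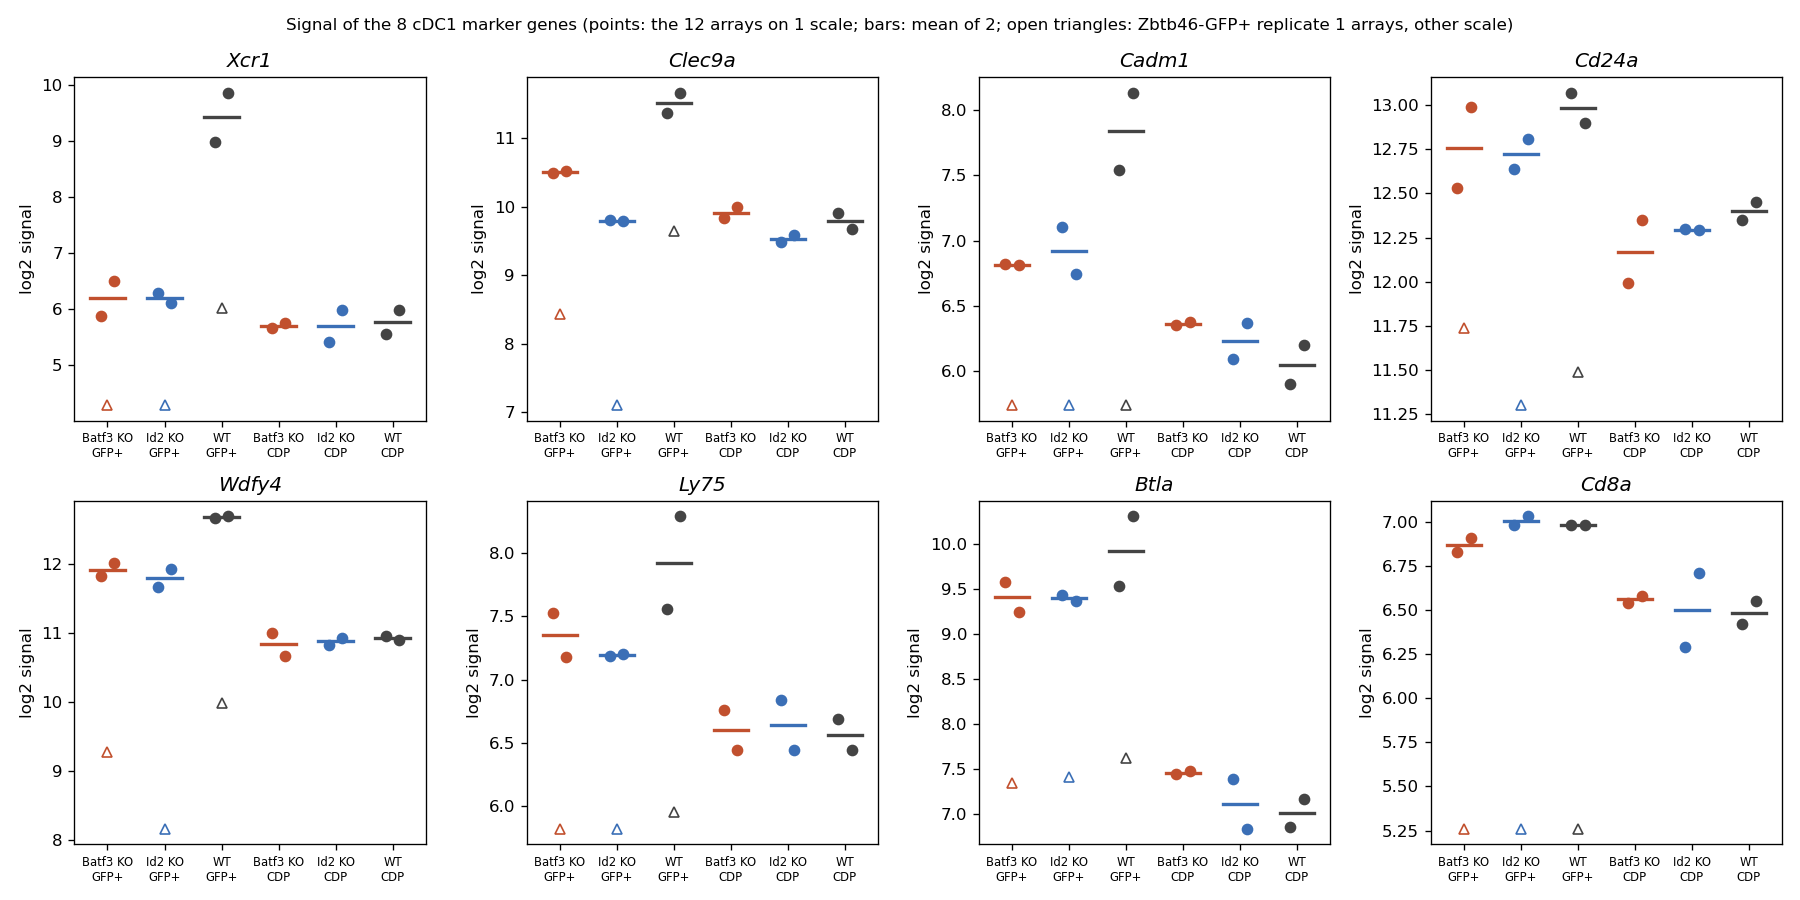
Log2 signal of the 8 marker genes on each array (vertical axes), by group (horizontal axes); filled points are the 12 arrays on a common scale, bars the mean of 2, and open triangles the GFP+ replicate 1 arrays, whose scale differs. The 2 WT GFP+ points of Xcr1, at 8.99 and 9.86, stand above all other points of that gene, which reach at most 6.51.

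The start-site regions of 4 of the members are shown because Batf3 is a transcription factor and Id2 acts on E proteins, which recognise the E-box. These genes also include the members that fell in both knockouts and the members that rose with stage in all 3 genotypes. RefSeq promoter windows on GRCm38.p6 run from 250 bases before to 50 after the annotated start, and 6 of the 8 members had one. The capitals mark E-boxes, the letters CANNTG on either strand, which 72.3% of 32851 such windows hold at least once. The Xcr1 window lies at chr9:123861980-123862279 on the minus strand, the Clec9a window at chr6:129408612-129408911 on the plus strand, the Wdfy4 window at chr14:33185017-33185316 on the minus strand and the Btla window at chr16:45224087-45224386 on the plus strand. Each is written 5′ to 3′ on the strand of its gene.
Xcr1: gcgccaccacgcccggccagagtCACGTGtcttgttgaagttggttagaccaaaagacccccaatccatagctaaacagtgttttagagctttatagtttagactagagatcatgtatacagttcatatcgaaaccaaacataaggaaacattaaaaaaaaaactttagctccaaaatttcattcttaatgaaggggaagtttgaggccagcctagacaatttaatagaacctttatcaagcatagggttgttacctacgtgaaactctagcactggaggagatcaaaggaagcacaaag
Clec9a: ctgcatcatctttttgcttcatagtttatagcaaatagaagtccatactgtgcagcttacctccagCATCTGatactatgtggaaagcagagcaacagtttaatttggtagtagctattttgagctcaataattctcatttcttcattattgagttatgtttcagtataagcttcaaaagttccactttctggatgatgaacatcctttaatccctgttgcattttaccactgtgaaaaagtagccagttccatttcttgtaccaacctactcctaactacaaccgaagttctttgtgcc
Wdfy4: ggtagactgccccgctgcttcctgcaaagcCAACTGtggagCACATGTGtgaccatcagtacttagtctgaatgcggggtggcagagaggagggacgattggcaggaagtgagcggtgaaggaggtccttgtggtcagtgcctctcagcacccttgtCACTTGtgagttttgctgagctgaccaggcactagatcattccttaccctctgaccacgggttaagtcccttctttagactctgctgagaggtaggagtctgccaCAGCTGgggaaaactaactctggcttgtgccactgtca
Btla: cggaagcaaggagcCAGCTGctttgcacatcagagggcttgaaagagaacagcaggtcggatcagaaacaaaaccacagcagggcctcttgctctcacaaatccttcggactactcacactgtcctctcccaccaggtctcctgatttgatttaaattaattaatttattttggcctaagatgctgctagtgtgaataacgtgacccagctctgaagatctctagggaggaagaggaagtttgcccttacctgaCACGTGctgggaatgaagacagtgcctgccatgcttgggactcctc

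An E-box was found in 5 of the 6 windows: 1 in Xcr1, 1 in Clec9a, 5 in Wdfy4, of which a pair overlap, 2 in Btla and 3 in Cd8a. The Ly75 window held 0. The AP-1 element TGANTCA, which Batf and Jun pairs can bind, occurred in 0 of the 6 windows, beside 7.81% of all windows. Its composite with an IRF half-element, TTTC, NNNN and TGANTCA in a run, occurred in 0 of the 6 and in 0.119% of all. The interferon-stimulated response element, GAAA, NN and GAAA in a run, occurred in 0 of the 6 and in 3.44% of all. The composite element of Ets and IRF factors, GGAA, NN and GAAA in a run, occurred in 1 of the 6, Cd8a, with 2 matches, and in 2.72% of all. Both strands were searched, and a match describes letters in these windows only.

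Xcr1, whose product guides cDC1s to T and NK cells that release its ligand, separated WT GFP+ cells from the 5 other groups. Its signal was 58.8 and 91.45 in Batf3 KO GFP+ cells, 78.4 and 69.7 in Id2 KO GFP+ cells, and 509.5 and 927.6 in WT GFP+ cells. Batf3 KO CDPs had 50.4 and 53.8, Id2 KO CDPs 42.8 and 62.95, and WT CDPs 47.2 and 63.5. Both WT GFP+ arrays were thus high, and the 10 other arrays lay close together. In WT the rise with stage was 3.65 log2 units (95% interval 2.99 to 4.31, limma adjusted p = 2.38e-05), or 12.6-fold, rank 33 among all genes. The stage differences in Batf3 KO (0.49, interval -0.16 to 1.15, adjusted p = 0.481) and Id2 KO (0.51, interval -0.15 to 1.17, adjusted p = 0.49) did not pass limma's test. They amounted to 13.5% (Batf3 KO) and 13.9% (Id2 KO) of the WT difference on the log2 scale.

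Against WT GFP+ cells, Xcr1 fell by 3.23 log2 units in Batf3 KO (SE 0.30, limma adjusted p = 3.87e-04), or 9.37-fold. In Id2 KO it fell by 3.22 log2 units (SE 0.30, limma adjusted p = 2.62e-04), or 9.3-fold. Ranked from the lowest change upward, Xcr1 was gene 6 in the Batf3 KO comparison and gene 7 in the Id2 KO comparison. Both calls held when each of the 4 arrays compared was left out in turn. Between the knockouts the difference was 0.01 log2 units (interval -0.65 to 0.67). On the replicate 1 arrays Xcr1 had the same signal, 19.6, in Batf3 KO and Id2 KO, against 64.75 in WT.

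Clec9a, the receptor for actin filaments exposed on dead cells, was lowest in Id2 KO, higher in Batf3 KO and highest in WT among GFP+ cells. Its signal was 1437 and 1473 in Batf3 KO GFP+ cells, 889.5 and 887.2 in Id2 KO GFP+ cells, and 2652 and 3234 in WT GFP+ cells. Batf3 KO CDPs had 910.6 and 1016, Id2 KO CDPs 715.1 and 765.7, and WT CDPs 955.5 and 816.1. The 3 GFP+ groups did not overlap, and the Id2 KO GFP+ arrays lay between the 2 WT CDP arrays. With stage, Clec9a rose by 1.73 log2 units in WT (limma adjusted p = 2.31e-05). In Batf3 KO it rose by 0.60 (interval 0.29 to 0.91, limma adjusted p = 0.0257), a call that ended without any of its 4 arrays, CDP replicates 1 and 2 and GFP+ replicates 2 and 3 (adjusted p from 0.0715 to 0.211). In Id2 KO the stage difference was 0.26 (interval -0.04 to 0.57, limma adjusted p = 0.41).

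Against WT GFP+ cells, Clec9a fell by 1.72 log2 units, 3.3-fold, in Id2 KO (SE 0.14, limma adjusted p = 1.18e-04), and the call held without each array in turn. In Batf3 KO it fell by 1.01, 2.01-fold (SE 0.14, limma adjusted p = 0.0096). That call ended without WT GFP+ replicate 3 (adjusted p = 0.0779), Batf3 KO GFP+ replicate 2 (0.129) or Batf3 KO GFP+ replicate 3 (0.0833). Id2 KO minus Batf3 KO gave -0.71 log2 units (interval -1.02 to -0.40), the largest difference between the knockouts among the 8 members, and missed the threshold (limma adjusted p = 0.0561). With all 15 arrays and a term for the 3 that stand apart, it was -0.92 and passed (adjusted p = 0.0169). On the replicate 1 arrays the signals were 344.6 in Batf3 KO, 137.5 in Id2 KO and 802.1 in WT, the same order.

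Ly75, which encodes the uptake receptor DEC-205, rose with stage in WT. Its signal was 185.3 and 144.8 in Batf3 KO GFP+ cells, 146.2 and 146.8 in Id2 KO GFP+ cells, and 189.3 and 313.6 in WT GFP+ cells. CDPs of the 3 genotypes ranged from 86.5 to 114.5. The WT step was 1.37 log2 units (interval 0.84 to 1.89, limma adjusted p = 0.00364), and the steps in Batf3 KO (0.76, adjusted p = 0.0927) and Id2 KO (0.56, adjusted p = 0.254) did not pass. The Batf3 KO step passed with arrays centred on the 75th percentile (0.83, adjusted p = 0.019) and with the 15-array term (0.79, adjusted p = 0.0478). Both knockouts lay below both WT GFP+ arrays, and the lower WT array exceeded the higher Batf3 KO array by little. The differences from WT, -0.57 in Batf3 KO and -0.73 in Id2 KO, did not pass limma's test (adjusted p = 0.98 and 0.237). Without WT GFP+ replicate 2, the lower of the WT pair, the Id2 KO difference was -1.10. On the replicate 1 arrays Ly75 had the same signal, 56.6, in Batf3 KO and Id2 KO, a difference from WT of -0.12 log2 units.

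Wdfy4, a large BEACH-domain protein gene, rose with stage in every genotype. Its signal was 3643 and 4112 in Batf3 KO GFP+ cells, 3245 and 3892 in Id2 KO GFP+ cells, and 6483 and 6610 in WT GFP+ cells. CDPs of the 3 genotypes had 1627 to 2046. All 6 GFP+ arrays exceeded all 6 CDP arrays, and both WT GFP+ arrays exceeded the 4 knockout ones. The steps were 1.09 log2 units in Batf3 KO (limma adjusted p = 0.00122), 0.92 in Id2 KO (0.00368) and 1.74 in WT (2.94e-05). The Id2 KO step was not called with the 15-array term. The differences between these steps did not pass limma's interaction test (adjusted p = 1 for Batf3 KO and 0.227 for Id2 KO).

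In GFP+ cells Wdfy4 fell by 0.88 log2 units in Id2 KO against WT (SE 0.15, limma adjusted p = 0.0116), which ended without WT GFP+ replicate 3 (adjusted p = 0.0599) or Id2 KO GFP+ replicate 2 (0.163). The Batf3 KO difference was -0.76 (SE 0.15) and missed the threshold (limma adjusted p = 0.083). Wdfy4 was the member with a second probe set annotated to it alone, 10418868. On that probe set GFP+ cells averaged 10.33 log2 units in Batf3 KO, 10.29 in Id2 KO and 11.52 in WT, a difference from WT of -1.19 for Batf3 KO and -1.22 for Id2 KO. With the mean of both probe sets the Batf3 KO difference was -0.97 and passed (limma adjusted p = 0.0421). On the replicate 1 arrays the main probe set read 622.7 in Batf3 KO, 286.1 in Id2 KO and 1012 in WT.

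Cadm1, an immunoglobulin-family adhesion gene used to recognise cDC1s across species, rose 3.46-fold with stage in WT. Its signal was 113 and 112.1 in Batf3 KO GFP+ cells, 136.8 and 106.8 in Id2 KO GFP+ cells, and 186.6 and 280.6 in WT GFP+ cells. CDPs of the 3 genotypes had 59.7 to 83.1. The WT GFP+ arrays were the highest, and the knockout GFP+ arrays lay between them and the CDPs. The WT step was 1.79 log2 units (SE 0.20, limma adjusted p = 2.11e-04). The steps in Batf3 KO (0.45, adjusted p = 0.269) and Id2 KO (0.69, adjusted p = 0.0728) did not pass. The Id2 KO step passed when dim genes were left out (limma adjusted p = 0.048). Cadm1 met that filter, a log2 signal of 7 on at least 2 arrays, through both WT GFP+ arrays and Id2 KO GFP+ replicate 2. Its place in that test thus rested on WT GFP+ cells, where it was highest.

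Against WT GFP+ cells, Cadm1 fell by 0.92 log2 units in Id2 KO (SE 0.20, limma adjusted p = 0.0485). That call ended without WT GFP+ replicate 3 (0.249), Id2 KO GFP+ replicate 2 (0.112) or Id2 KO GFP+ replicate 3 (0.405), and with arrays centred on the 75th percentile (0.0686) or the 15-array term (0.322). The Batf3 KO difference was -1.02 and did not pass (limma adjusted p = 0.0878). Without WT GFP+ replicate 2 it was -1.32. It passed (limma adjusted p = 0.0226) with a block term added after seeing the data. That term marked the array of the higher 75th percentile signal in each group, so it came from the intensities and not from the labels. The replicate 1 arrays had the same Cadm1 signal in all 3 genotypes, 53.4.

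Cd24a, the gene for a heavily glycosylated surface protein, gave high signals in every group and differed little between them. Its signal was 5933 and 8107 in Batf3 KO GFP+ cells, 6367 and 7172 in Id2 KO GFP+ cells, and 8611 and 7635 in WT GFP+ cells. CDPs of the 3 genotypes had 4073 to 5585. All GFP+ arrays lay above all CDP arrays, while Batf3 KO and WT overlapped within GFP+ cells. The steps were 0.59 log2 units in Batf3 KO, 0.43 in Id2 KO and 0.59 in WT, with limma adjusted p = 0.0717, 0.216 and 0.0548. The Batf3 KO step passed with the 15-array term (0.0204) and without Batf3 KO GFP+ replicate 2 (0.0427), and the WT step when dim genes were left out (0.0401). The difference from WT GFP+ cells was -0.23 in Batf3 KO (interval -0.61 to 0.16) and -0.26 in Id2 KO (interval -0.65 to 0.12). On the replicate 1 arrays Cd24a differed from WT by 0.25 log2 units in Batf3 KO, the other direction, and by -0.19 in Id2 KO.

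Btla, the inhibitory receptor gene whose product binds HVEM, rose with stage in all 3 genotypes. Its signal was 767.8 and 609.1 in Batf3 KO GFP+ cells, 689 and 663.1 in Id2 KO GFP+ cells, and 737.3 and 1267 in WT GFP+ cells. Batf3 KO CDPs had 173.7 and 177.8, Id2 KO CDPs 166.2 and 113.7, and WT CDPs 115.7 and 142.6. Every GFP+ array stood above every CDP array, and Batf3 KO overlapped WT within GFP+ cells. The steps were 1.96 log2 units in Batf3 KO (3.89-fold, limma adjusted p = 8.50e-04), 2.30 in Id2 KO (4.92-fold, 3.80e-04) and 2.91 in WT (7.53-fold, 3.25e-05). These held without each array of the groups compared. The differences from WT GFP+ cells were -0.50 in Batf3 KO (interval -1.05 to 0.05, adjusted p = 1) and -0.52 in Id2 KO (interval -1.07 to 0.04, adjusted p = 0.599), neither past limma's threshold. On the replicate 1 arrays Btla differed from WT by -0.29 log2 units in Batf3 KO and -0.22 in Id2 KO.

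Cd8a, whose product forms a homodimer on lymphoid-organ cDC1s, had low signals throughout. Its signal was 114.1 and 120.4 in Batf3 KO GFP+ cells, 126.6 and 130.7 in Id2 KO GFP+ cells, and 126.4 and 126 in WT GFP+ cells, against 78.2 to 104.8 in CDPs. GFP+ arrays were above CDP arrays, and the knockouts lay within 0.11 log2 units of WT. The steps, 0.31 in Batf3 KO, 0.51 in Id2 KO and 0.49 in WT, did not pass limma's test (adjusted p = 0.295, 0.0655 and 0.0536). With the 15-array term those of Id2 KO (0.024) and WT (0.0189) passed. The 3 arrays added there held the same Cd8a signal, so these passes draw in part on tied values and add no support. Without Id2 KO CDP replicate 2 the Id2 KO step was 0.72. Cd8a was not tested when dim genes were left out. The replicate 1 arrays had the same Cd8a signal in all 3 genotypes, 38.4.

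**Figure D2:**
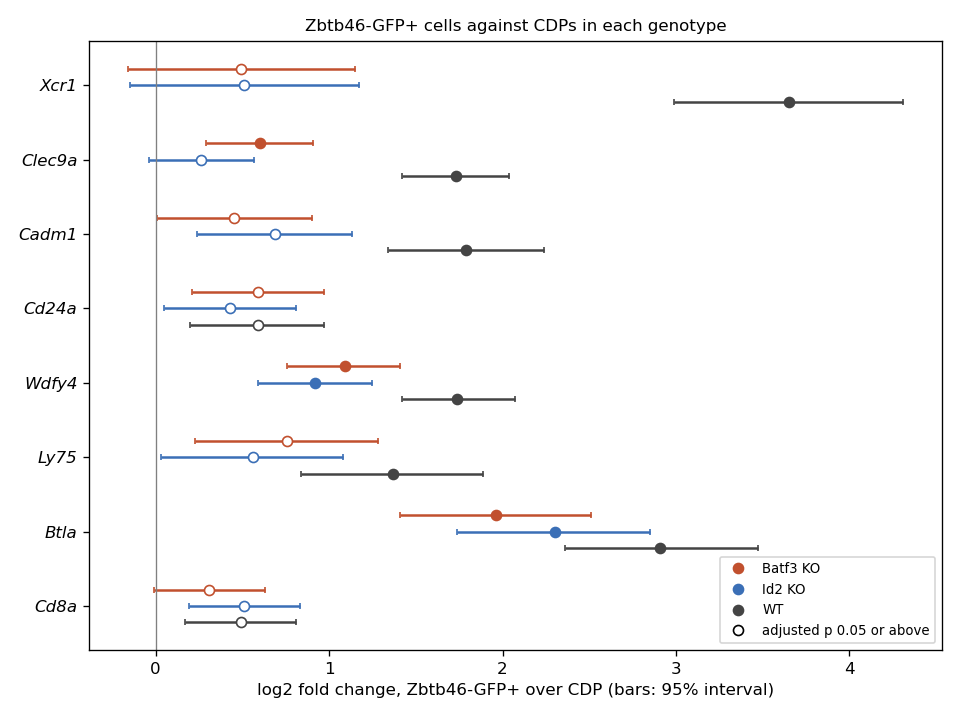
Log2 fold change of GFP+ cells over CDPs (horizontal axis) for the 8 marker genes (vertical axis) in Batf3 KO, Id2 KO and WT; bars are 95% intervals and filled points passed the test. Btla and Wdfy4 have filled points in all 3 genotypes, while Xcr1 stands at 0.49 and 0.51 in the knockouts and 3.65 in WT.

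Across the members, the rise with stage therefore passed the test for 3 genes in Batf3 KO, Clec9a, Wdfy4 and Btla, for 2 in Id2 KO, Wdfy4 and Btla, and for 6 in WT. The same direction was called for 3.87% of all genes in Batf3 KO and 3.84% in Id2 KO. All 8 members had both GFP+ arrays above both CDP arrays in either knockout, as had 21.6% of all genes in Batf3 KO and 20.3% in Id2 KO. The members' median step was 0.59 log2 units in Batf3 KO, 0.53 in Id2 KO and 1.74 in WT, and the median over all genes was 0.01 in Batf3 KO and 0.01 in Id2 KO. The step of a knockout as a part of the WT step, on the log2 scale, ran from 13.5% for Xcr1 to 101% for Cd24a in Batf3 KO. In Id2 KO it ran from 13.9% for Xcr1 to 103% for Cd8a, and Clec9a had 15.2% there and 34.5% in Batf3 KO. Both upper ends are ratios of small steps that passed limma's test in neither the knockout nor WT.

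In GFP+ cells, 2 of the 8 members fell in Batf3 KO, Xcr1 and Clec9a, beside 0.226% of all genes. In Id2 KO 4 fell, Xcr1, Clec9a, Cadm1 and Wdfy4, beside 0.717% of all genes. Both comparisons use the same 2 WT GFP+ arrays. The counts of 2 and 4 depend on the adjusted threshold, which called 67 of all genes in Batf3 KO and 361 in Id2 KO. Before adjustment, 5 members passed limma's test at 0.05 in each knockout, Xcr1, Clec9a, Cadm1, Wdfy4 and Ly75. Cadm1 was -1.02 in Batf3 KO, not called, and -0.92 in Id2 KO, called. Wdfy4 was -0.76 in Batf3 KO, not called, and -0.88 in Id2 KO, called. The counts thus do not show that more members fell in Id2 KO. Arrays of the groups did not overlap, with the knockout lower, for 6 members in Batf3 KO (10.7% of all genes) and 7 in Id2 KO (16.4% of all genes). The median difference of the members was -0.67 log2 units for Batf3 KO and -0.81 for Id2 KO, while the median over all genes was 0.01 for Batf3 KO and -0.02 for Id2 KO. Between Id2 KO and Batf3 KO, 0 members passed limma's test, beside 0.592% of all genes, and 1 member, Clec9a, had an unadjusted p under 0.05. The other 7 differed there by -0.16 to 0.13 log2 units.

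**Figure D3:**
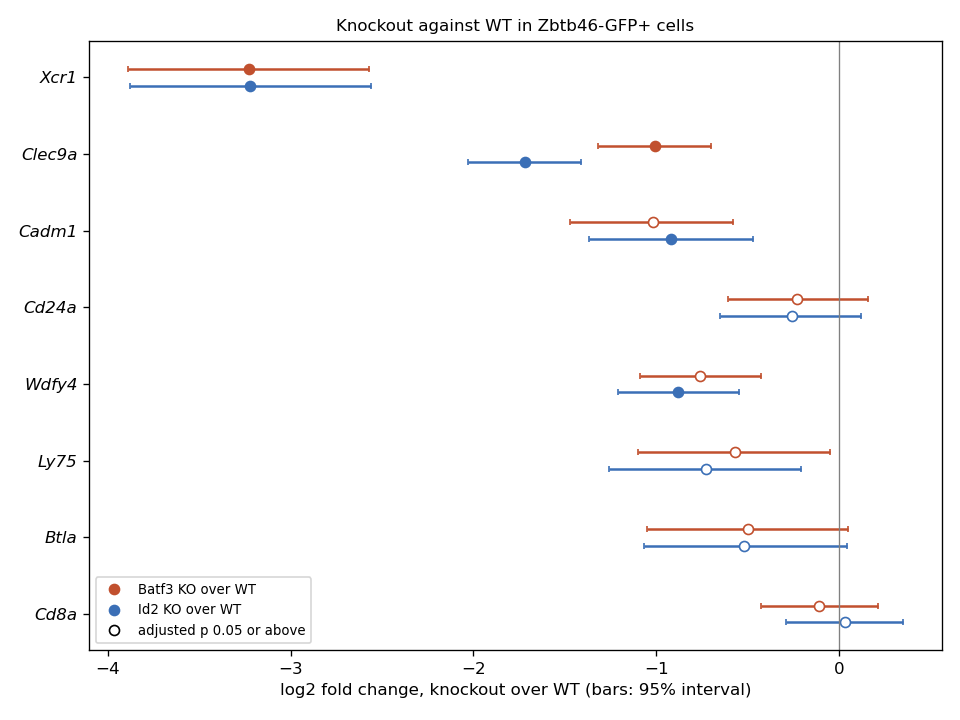
Log2 fold change of each knockout over WT in GFP+ cells (horizontal axis) for the 8 marker genes (vertical axis); bars are 95% intervals and filled points passed the test. Xcr1 lies at -3.23 for Batf3 KO and -3.22 for Id2 KO, apart from the other members, which lie between -1.72 and 0.03.

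In CDPs no marker gene passed the test between a knockout and WT. The members' differences ran from -0.23 to 0.45 log2 units in Batf3 KO and from -0.26 to 0.18 in Id2 KO, with 0 of 8 called by limma and 0 at an unadjusted p under 0.05. Of all genes, 0.0502% were called in Batf3 KO and 0.0251% in Id2 KO. The intervals were widest for Xcr1, -0.73 to 0.59 in Batf3 KO and -0.73 to 0.58 in Id2 KO.

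Whether a knockout's difference depended on stage was tested with limma's interaction term, which compares the step in the knockout with the step in WT. It passed for Xcr1 with -3.16 log2 units in Batf3 KO (SE 0.42, adjusted p = 0.0211) and -3.14 in Id2 KO (SE 0.42, adjusted p = 0.0111), and for Clec9a with -1.47 in Id2 KO (SE 0.20, adjusted p = 0.0111). The background was 0.0802% of all genes called lower in Batf3 KO and 0.206% in Id2 KO. For Clec9a in Batf3 KO the term was -1.13 and did not pass (adjusted p = 0.121), and for Cadm1 it was -1.34 in Batf3 KO (0.33) and -1.10 in Id2 KO (0.239). Without WT GFP+ replicate 2 the Batf3 KO terms of Clec9a and Cadm1 passed (0.0467 each). The Xcr1 call in Batf3 KO ended without WT CDP replicate 1 or 2, WT GFP+ replicate 3, Batf3 KO CDP replicate 1 or 2, or Batf3 KO GFP+ replicate 2 (adjusted p up to 0.123), and with centred arrays. With the 15-array term the Xcr1 calls of Batf3 KO (0.304) and Id2 KO (0.111) ended. The Id2 KO calls ended without Id2 KO GFP+ replicate 2 or 3, and that of Xcr1 also without WT CDP replicate 1.

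The targeted genes were checked in every group. Batf3 averaged 7.10 log2 units in Batf3 KO GFP+ cells, 8.29 in Id2 KO GFP+ cells and 9.92 in WT GFP+ cells, and 7.05 to 7.14 in CDPs, where it separates no genotype. It fell by 2.82 in Batf3 KO (SE 0.18, limma adjusted p = 2.12e-05) and by 1.63 in Id2 KO (SE 0.18, adjusted p = 9.63e-04) against WT GFP+ cells. Id2 averaged 11.35 in Batf3 KO, 8.61 in Id2 KO and 11.74 in WT GFP+ cells, and 7.79 in Batf3 KO, 6.52 in Id2 KO and 7.54 in WT CDPs. It fell by 3.13 in Id2 KO GFP+ cells (SE 0.32, limma adjusted p = 5.04e-04), while the Id2 KO difference in CDPs, -1.03, did not pass (adjusted p = 1). Within Id2 KO the Id2 signal rose by 2.09 with stage (adjusted p = 0.00259), and the position of its probes relative to the deletion was not analysed here. The Batf3 KO difference in GFP+ cells did not pass (-0.38, adjusted p = 1). Zbtb46 and Kit, on which the GFP+ cells were sorted, fell by 1.06 and 0.88 log2 units in Id2 KO, and the Kit call ended without WT GFP+ replicate 3 or Id2 KO GFP+ replicate 2 or 3 (adjusted p up to 0.124). In Batf3 KO, Zbtb46 fell by 1.08 and Kit differed by 0.03, and this Zbtb46 call ended without Batf3 KO GFP+ replicate 2 or 3 and with centred arrays. With the 15-array term the Zbtb46 calls of Batf3 KO (-0.72, limma adjusted p = 0.379) and Id2 KO (-0.78, limma adjusted p = 0.0787) both ended.

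Other genes known from cDC1s, a list of 20 of which 19 were measured, are given beside the markers. In GFP+ cells 11 of the 19, the deleted Batf3 among them, fell in Batf3 KO, beside 0.226% of all genes, with a median of -1.57 log2 units, led by Gcsam (-3.63), Cd36 (-3.61), Snx22 (-3.19) and Batf3; the Snx22 call of either knockout ended with the 15-array term. In Id2 KO 12, the deleted Id2 among them, fell, beside 0.717% of all genes, and 1 rose, with a median of -2.0: Tlr3, the sensor of double-stranded RNA, changed by -3.78, Gcsam by -3.37, Snx22 by -3.27 and Id2 by -3.13, while Nfil3 rose by 2.77. With stage in WT 16 rose, beside 4.71% of all genes, and 1, Nfil3 (-2.16), fell, beside 6.38% of all genes. The steps of Tlr3 were 3.79 log2 units in Batf3 KO, 2.21 in Id2 KO and 6.11 in WT, and those of Ifi205 were 2.49 in Batf3 KO, 3.29 in Id2 KO and 5.40 in WT. Irf8, a transcription factor that cDC1s require, did not pass in any knockout comparison of GFP+ cells, with -0.05 in Batf3 KO and 0.12 in Id2 KO.

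In CDPs 1 gene of that list passed the test. Ifi205, an interferon-inducible gene, had 662.2 and 620.5 in Batf3 KO CDPs, against 155.9 and 104.9 in WT CDPs. It rose by 2.33 log2 units (SE 0.27, limma adjusted p = 0.00649), a call that ended without WT CDP replicate 2 or Batf3 KO CDP replicate 1 or 2 (adjusted p up to 0.114). Id2 KO CDPs had 142.7 and 80.7. Between the knockouts in GFP+ cells, 3 of the 19 rose and 5 fell in Id2 KO against Batf3 KO. Over all genes, 0.261% were called higher and 0.331% lower there. The called genes of the list included Nfil3 (2.43), Ifi205 (-1.78), Hepacam2 (-1.70) and Id2 (-2.75). Of these, Hepacam2 lost its call without any of the 4 arrays and Ifi205 without Batf3 KO GFP+ replicate 3 or Id2 KO GFP+ replicate 2 or 3 (adjusted p up to 0.345).

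Markers of other cell types moved in the same samples, and their part in the members' differences was not tested. The sums below are of linear signal, so the brightest genes of a list weigh most and changes of dimmer genes show little. The summed signal of 8 plasmacytoid dendritic cell markers was 6373 to 9824 in Batf3 KO GFP+ cells, 17342 to 19192 in Id2 KO GFP+ cells and 4243 to 6029 in WT GFP+ cells. Of these 8, 0 passed limma's test in Batf3 KO and 6 rose in Id2 KO, among them Ly6d (4.03, adjusted p = 3.85e-04) and Siglech (3.06, adjusted p = 0.00641). Over all genes in GFP+ cells, 0.11% were called higher and 0.226% lower in Batf3 KO. In Id2 KO 1.09% were called higher and 0.717% lower. The Siglech call ended without Id2 KO GFP+ replicate 2 or 3 (adjusted p up to 0.0644). Markers of cDC2s, the other classical subset, summed to 10677 to 12373 in Batf3 KO, 8872 to 10035 in Id2 KO and 5202 to 8463 in WT GFP+ cells, with 0 of 8 called in either knockout. Neutrophil markers summed to 20588 to 28961 in Batf3 KO, 39109 to 40630 in Id2 KO and 15375 to 17232 in WT GFP+ cells, with 0 of 7 called in Batf3 KO and 1 in Id2 KO.

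B-lineage markers summed to 801 to 951 in Batf3 KO, 869 to 953 in Id2 KO and 651 to 670 in WT GFP+ cells, with 0 of 7 called in either knockout. T and NK cell markers summed to 357 to 371 in Batf3 KO, 405 to 508 in Id2 KO and 347 to 368 in WT GFP+ cells, with 0 of 7 called in Batf3 KO and 1 in Id2 KO. Monocyte markers summed to 4107 to 4324 in Batf3 KO, 3006 to 3017 in Id2 KO and 4182 to 4233 in WT GFP+ cells. Of these 5 markers, 2 rose in Batf3 KO, while 1 rose and 1 fell in Id2 KO. Erythroid markers lay between 227 and 277 in all GFP+ groups, with 0 of 3 called in either knockout. The classical dendritic cell list includes Zbtb46 and the MHC class II genes. It summed to 36634 to 39659 in Batf3 KO, 33435 to 36580 in Id2 KO and 40727 to 45801 in WT GFP+ cells, and to 3462 to 5065 in CDPs. Of its 6 genes, 1 fell in each knockout. Markers of the common dendritic cell progenitor summed to 6952 to 7899 in Batf3 KO, 7973 to 8326 in Id2 KO and 5480 to 7541 in WT GFP+ cells. Of these 5, 1 rose in Batf3 KO, while 2 rose and 1 fell in Id2 KO. The 8 cDC1 markers themselves summed to 12252 to 14770 in Batf3 KO, 11679 to 13068 in Id2 KO and 19495 to 20394 in WT GFP+ cells. Most of that sum came from Cd24a and Wdfy4, with geometric means of 8108 and 6546 in WT GFP+ cells, against 687.5 for Xcr1.

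**Figure D4:**
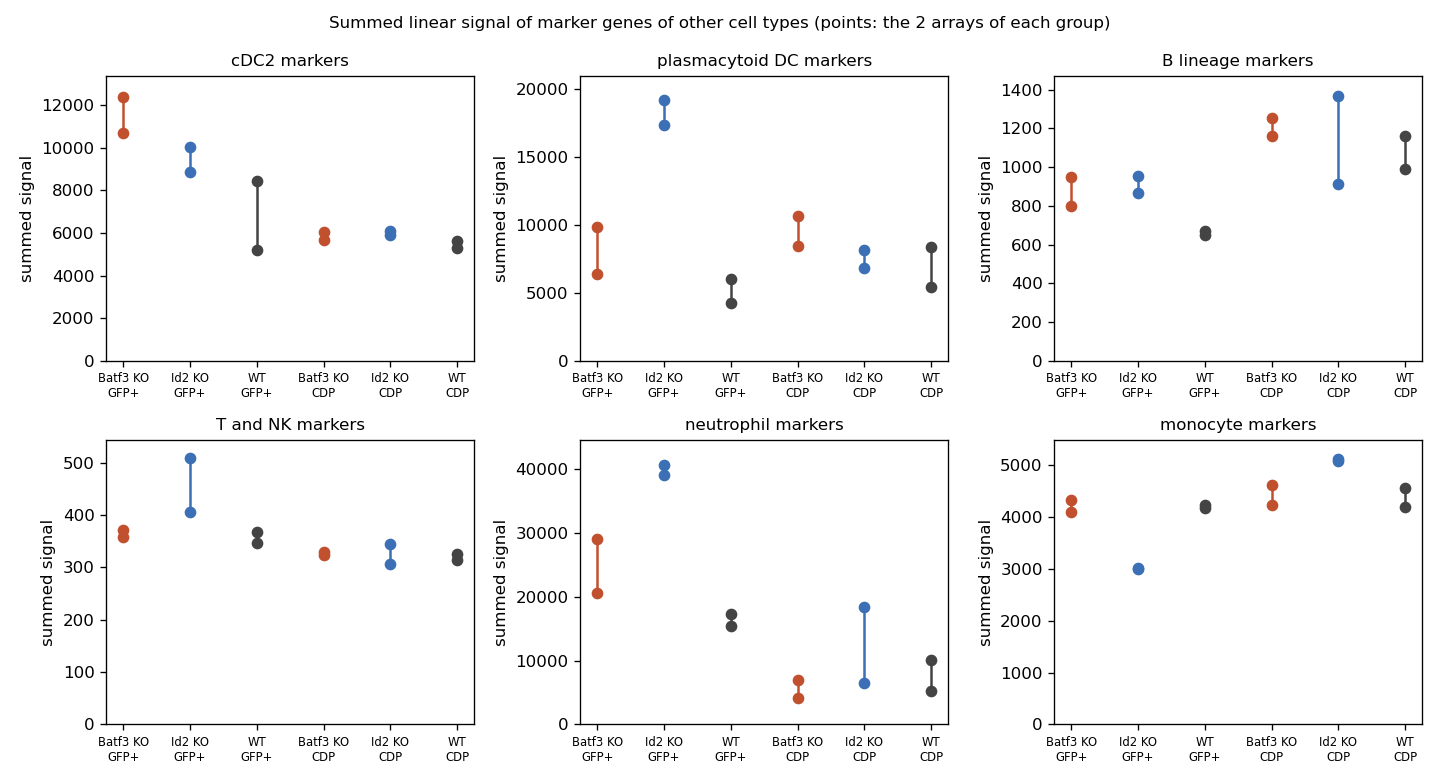
Summed signal of marker genes of 6 other cell types (vertical axes, from 0) by group (horizontal axes); points are the 2 arrays of each group. Plasmacytoid dendritic cell markers reach 17342 to 19192 in Id2 KO GFP+ cells and at most 10675 in every other group.

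On the 12 arrays the knockouts also differed from WT in sex pattern. Xist, which is expressed from the inactive X chromosome, differed from WT GFP+ cells by -6.61 log2 units for Batf3 KO and -6.53 for Id2 KO, and the Y-linked Eif2s3y, Kdm5d and Uty rose in both knockouts. Sex pattern and genotype cannot be told apart there. None of the 8 members is annotated to X or Y. On the replicate 1 arrays Xist was 11.02 log2 units in Batf3 KO, 3.66 in Id2 KO and 10.53 in WT. Those are 1 array per genotype on another scale, on which 74.9% of genes had the same value in Batf3 KO and WT, and no test was made. The part of sex pattern in the members' differences was not tested.

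The genes whose log2 signal followed each member most closely over the 12 arrays, among genes whose group means spanned at least 1 log2 unit, are given as a description, since the arrays share the same 6 groups. Xcr1 was closest to Snx22 (Pearson r = 0.990), Gpr141b (0.989) and Rasgrp3 (0.986). Clec9a was closest to P3h2 (0.973), Rab7b (0.962) and Rtl8c (0.959), and Cadm1 to Nlrp1b (0.976), Klrb1b (0.972) and Slc7a8 (0.959). Wdfy4 was closest to Tlr3 (0.981), Ap1s3 (0.972) and Gpr157 (0.968). Ly75 followed Cpne3 (0.986), Mfsd14a (0.984) and Sowahc (0.978), and Btla followed Cytip (0.991), P2ry10b (0.987) and P2ry6 (0.986). Cd24a had Cd2ap (0.921), Gm4788 (0.915) and Rab30 (0.914), and Cd8a had Gm1965 (0.935), Ffar4 (0.932) and Arhgap22 (0.923). Among the members themselves r was highest for Wdfy4 with Ly75 and with Btla (0.92 each) and lowest for Clec9a with Cd8a (0.58).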

How the data were processed

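RNA of the sorted cells was hybridised to 15 mouse Affymetrix gene arrays. The authors deposited a value table of normalized intensity on a linear scale, made with RMA in Affymetrix Expression Console per the submitters' processing notes, and the genome build was not given in the sources used here. Of 28853 probe sets, 21789 carried 1 symbol, 1621 several and 5443 none, and 1 probe set per gene, with the highest mean, was kept for 19938 genes, all of them tested without a filter on low values. The deposited intensity was taken to log2. limma 3.58.1 in R 4.3.3 fitted 1 mean per group over 12 arrays (6 residual degrees of freedom), followed by eBayes, two-sided tests and Benjamini-Hochberg adjustment over all genes. The 3 GFP+ replicate 1 arrays lie on another scale (r with the 12 arrays 0.871 to 0.914, within the 12 arrays 0.956 to 0.996) and were given apart.

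The members, the gene lists and the 12 arrays were chosen with earlier results of these data known. Named were all members, the targeted and gate genes, up to 4 called genes of the other cDC1 list per comparison, and the 3 genes nearest in pattern to each member; Ly6d, Siglech and Cd8b1 were named after their values were seen. Tlr11 of the other cDC1 list had no probe set of its own here. The fit was tested on simulated data. Alternatives were other sets of arrays, scaling, filtering, probe set choice, a replicate block and leaving out arrays.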

Additional observations from a re-analysis of the deposited data

Results flagged for a closer look

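Several genes differed between CDPs and GFP+ cells in how far a knockout lay from WT, as tested by limma's interaction term, in which a negative value means a smaller rise with stage in the knockout. The Batf3 KO and Id2 KO terms share the WT arrays. No group had enough arrays for a test of single outlying arrays.

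For Batf3 KO the term was -3.16 log2 units for Xcr1 (adjusted p = 0.0211), -2.79 for Batf3 itself (9.46e-04), -3.58 for Cd36 (9.41e-04), -3.57 for Gcsam (9.41e-04) and -3.33 for Snx22 (9.46e-04). With all 15 arrays and a term for the 3 that stand apart, the calls of Xcr1 (adjusted p = 0.304), Batf3 (0.222) and Snx22 (1) ended. It was -2.90 for Ifi205 (adjusted p = 0.0191), whose Batf3 KO CDPs were above WT CDPs, and this call ended without WT CDP replicate 2, WT GFP+ replicate 3, Batf3 KO CDP replicate 1 or 2, or Batf3 KO GFP+ replicate 2.

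For Id2 KO the term was -3.14 log2 units for Xcr1 (limma adjusted p = 0.0111), -1.47 for Clec9a (0.0111), -3.90 for Tlr3 (1.06e-05), -3.51 for Gcsam (0.00118), -3.44 for Snx22 (0.00118) and -3.18 for Cd36 (0.00154). With the 15-array term the calls of Xcr1 (adjusted p = 0.111) and Snx22 (0.907) ended. It was -1.55 for Batf3 (adjusted p = 0.0318), a call that ended when any of 7 of the 8 arrays in the term was left out, all but Id2 KO CDP replicate 1, and with centred arrays (0.159) or the 15-array term (0.902).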

How the results depend on the processing

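Having 2 arrays per group and a different scale on the other 3 limits these results. limma called 2212 genes in the WT step, 1432 in the Batf3 KO step, 1359 in the Id2 KO step, 67 and 361 in Batf3 KO and Id2 KO GFP+ cells, 118 between the knockouts, 10 and 5 in Batf3 KO and Id2 KO CDPs, and 19 and 64 in the interactions of Batf3 KO and Id2 KO with stage. With all 15 arrays and no term for scale, 1 gene was called in the WT step and 0 in the other comparisons, members 0 throughout, and 3 called values changed sign: Clec9a in the Batf3 KO step (-0.10), Wdfy4 (-0.29) and Kit (-0.41) in the Id2 KO step. With a term for the 3 arrays the counts were 29 and 207 in Batf3 KO and Id2 KO GFP+ cells, 5 and 0 in their CDPs and 8 and 20 in the interactions. Members called were then 5 in the Batf3 KO step, 1 between the knockouts, and 0 and 1 in the interactions. Centring arrays left 0 members in the Batf3 KO interaction, where called genes were 3 higher and 16 lower as reported and 0 and 14 when centred. The replicate block gave 555 genes in Id2 KO GFP+ cells and 120 in the Id2 KO interaction, and ended the Clec9a call in the Batf3 KO step. Same-numbered arrays deviated together within CDPs (r from 0.53 to 0.68). Within GFP+ cells they did so for Batf3 KO with Id2 KO (0.48), while WT deviated opposite to Batf3 KO (-0.55) and Id2 KO (-0.42). Between CDPs and GFP+ cells r was mixed in sign (-0.63 to 0.54). Deviations were thus correlated across groups, which the main fit does not model. The labels do not say that a number marks a shared batch. A block of crossed numbers, added after seeing the data, gave 4829, 3487 and 3234 genes in the steps of WT, Batf3 KO and Id2 KO, 250 and 1212 in GFP+ cells, 506 between the knockouts, 26 in Batf3 KO CDPs, and 42 and 373 in the interactions. Members were then 5 and 6 in the Batf3 KO and Id2 KO steps, 4 in Batf3 KO GFP+ cells, 1 between the knockouts and 2 in the Batf3 KO interaction; those gained include Cd24a and Cd8a in the WT step and Ly75 and Cd24a in both knockout steps. Leaving out 1 array at a time gave 1183 to 1778 genes in the WT step, 642 to 827 in Batf3 KO, 488 to 1110 in Id2 KO, 33 to 96 and 120 to 305 in GFP+ cells, 36 to 54 between the knockouts, 7 to 9 and 4 to 5 in CDPs, and 7 to 41 and 21 to 91 in the interactions. Members called then numbered 6 in the WT step, 2 to 3 in either knockout step, 1 to 3 and 2 to 5 in Batf3 KO and Id2 KO GFP+ cells, and 0 to 3 and 0 to 2 in the interactions. Leaving out dim genes dropped Cd8a and Zbtb46 from the test, and Xcr1 passed that filter through the WT GFP+ arrays alone. Cadm1 passed it through the WT GFP+ arrays and Id2 KO GFP+ replicate 2.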

Other observations

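Cd8b1, which encodes the chain that pairs with the product of Cd8a on T cells, was looked at beside Cd8a after its values were seen. Its signal was 36.75 and 42.3 in Batf3 KO GFP+ cells, 155.5 and 78.8 in Id2 KO GFP+ cells, and 47.0 and 50.3 in WT GFP+ cells, so both Id2 KO arrays stood above the other 4. It rose by 1.19 log2 units in Id2 KO against WT (SE 0.25, limma adjusted p = 0.0413), while Cd8a differed by 0.03 (adjusted p = 0.99). The Cd8b1 call ended without WT GFP+ replicate 2 (adjusted p = 0.164), WT GFP+ replicate 3 (0.126) or Id2 KO GFP+ replicate 2 (0.216), with centred arrays (0.109) and with the 15-array term (0.233).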
